A study of Mus musculus with 12 samples.

Results

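The genes described here are the nuclear-encoded subunits of the mitochondrial oxidative phosphorylation machinery, measured by RNA sequencing of mouse spinal cord. They were taken by name from the protein-coding rows of the gene table. The names were Ndufa, Ndufb, Ndufc, Ndufs or Ndufv with a number for complex I, Sdha to Sdhd for complex II, names starting with Uqcr for complex III, Cox4 to Cox8 for complex IV, and Atp5 for complex V. The rule gave 85 genes of the 45906 rows: 38 for complex I, 4 for complex II, 8 for complex III, 18 for complex IV and 17 for complex V. Cox8c had 0 counts in every library, so 84 of the 85 were tested among the 20155 genes that passed the filter on low counts. Ndufa4 was counted with complex I by its name, although the protein is now placed with cytochrome c oxidase.

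Spinal cord RNA was taken from C57BL/6 mice at 7 months of age, with 3 numbered samples in each of 4 genotypes. Plekhg5+/+ mice carried no transgene. Plekhg5-/- mice lacked Plekhg5, a guanine nucleotide exchange factor that acts in autophagy at presynaptic sites and is linked to lower motoneuron disease. Plekhg5+/+ SOD1-G93A mice had intact Plekhg5 and carried the low-copy transgene of mutant human SOD1, a slowly progressing model of amyotrophic lateral sclerosis. Plekhg5-/- SOD1-G93A mice combined the transgene with the loss of Plekhg5. Sex was not a factor of the design. The p-values below measure the spread between these 3 numbered samples of a genotype.

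Oxidative phosphorylation takes place in the inner mitochondrial membrane. Complexes I to IV pass electrons from NADH and succinate to oxygen and, except for complex II, pump protons. Complex V, the ATP synthase, uses the returning protons to make ATP. Most subunits are encoded in the nucleus and imported, while the catalytic cores of complexes I, III and IV and a part of the proton channel of complex V come from the mitochondrial genome. Neurons with long axons, motoneurons among them, have a high demand for ATP, and mitochondrial damage is a known feature of mutant SOD1 models. The mitochondrial protein-coding genes were not analysed here: the rows from the mitochondrial genome were 22 tRNA and 2 rRNA genes.

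Each library held between 30415643 and 38743628 gene counts. Plekhg5 stood at 19.4 to 25.0 CPM (a gene's counts scaled to the library's total) in the Plekhg5+/+ libraries and at 3.28 to 4.70 CPM in the Plekhg5-/- libraries. In the SOD1-G93A libraries it was at 20.9 to 24.9 CPM with and 3.92 to 4.72 CPM without intact Plekhg5. Human SOD1 stood at 4420 to 5640 CPM in the 6 transgenic libraries, against 0.153 to 5.47 CPM in the other 6. Markers of spinal cord neurons, astrocytes and oligodendrocytes were high in every library. The summed level of 10 microglial markers was 451 to 524 CPM in Plekhg5+/+, 494 to 679 in Plekhg5-/-, 843 to 1540 in Plekhg5+/+ SOD1-G93A and 636 to 708 in Plekhg5-/- SOD1-G93A libraries. The skeletal muscle gene Ckm had over 100 counts in 4 libraries, 1 of each genotype, and the brown fat gene Ucp1 in 2. Subunit forms of these tissues are described last beside these genes, and whether such tissue changed their values was not tested. In bulk RNA, fewer cells of a type and less RNA per cell cannot be told apart.

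The subunit genes were among the most abundant transcripts of the spinal cord. Per kilobase of exon, 43 of the 85 were among the 500 highest and 70 among the 1000 highest of 22007 protein-coding genes in the Plekhg5+/+ libraries. The median level of the 84 tested subunits was 100 CPM per kilobase, against 5.73 for the 15732 tested protein-coding genes. Together they took 1.14% ± 0.121 (SD, n = 3) of the counts in Plekhg5+/+, 1.16% ± 0.123 in Plekhg5-/-, 1.13% ± 0.110 in Plekhg5+/+ SOD1-G93A and 1.07% ± 0.0115 in Plekhg5-/- SOD1-G93A libraries. The shares of the first 3 genotypes lay within 1 SD of each other, and the spread was narrowest in Plekhg5-/- SOD1-G93A.

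The complexes differed less from each other than the subunits within one complex. In Plekhg5+/+ the median level per kilobase was 82.0 CPM for complex I, 101 for complex II, 126 for complex III, 122 for the 17 tested genes of complex IV and 127 for complex V. In Plekhg5-/- SOD1-G93A, the genotype with the lowest medians, these were 74.4, 94.2, 114, 115 and 119. Complex I ran from 27.8 ± 3.35 CPM per kilobase (SD, n = 3) for Ndufa11, a membrane arm subunit, to 410 ± 70.2 for Ndufa4, with Ndufb10, another membrane arm subunit, second at 180 ± 25.4. The core subunits of its NADH-oxidising arm were between these, Ndufs1 at 65.8 ± 3.32 and Ndufv1, which binds NADH and flavin, at 102 ± 5.55.

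In complex II the flavoprotein Sdha was highest at 194 ± 3.16 CPM per kilobase, followed by the iron-sulphur subunit Sdhb at 122 ± 12.9. The membrane anchors Sdhd and Sdhc were at 80.4 ± 7.00 and 71.3 ± 5.23, a difference within about 2 of their SDs. In complex III the hinge protein Uqcrh was at 335 ± 56.7, the core protein Uqcrc1 at 150 ± 8.78, the Rieske iron-sulphur protein Uqcrfs1 at 102 ± 9.29 and the small subunit Uqcrq lowest at 40.6 ± 6.70. In complex IV, Cox4i1 led with 611 ± 94.7 and Cox6b1 followed with 351 ± 56.7, while Cox5a was at 122 ± 15.3. Complex V held the highest gene of all, Atp5b for the catalytic beta subunit, at 724 ± 33.2, with Atp5a1 for the alpha subunit at 410 ± 13.

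**Figure D1:**
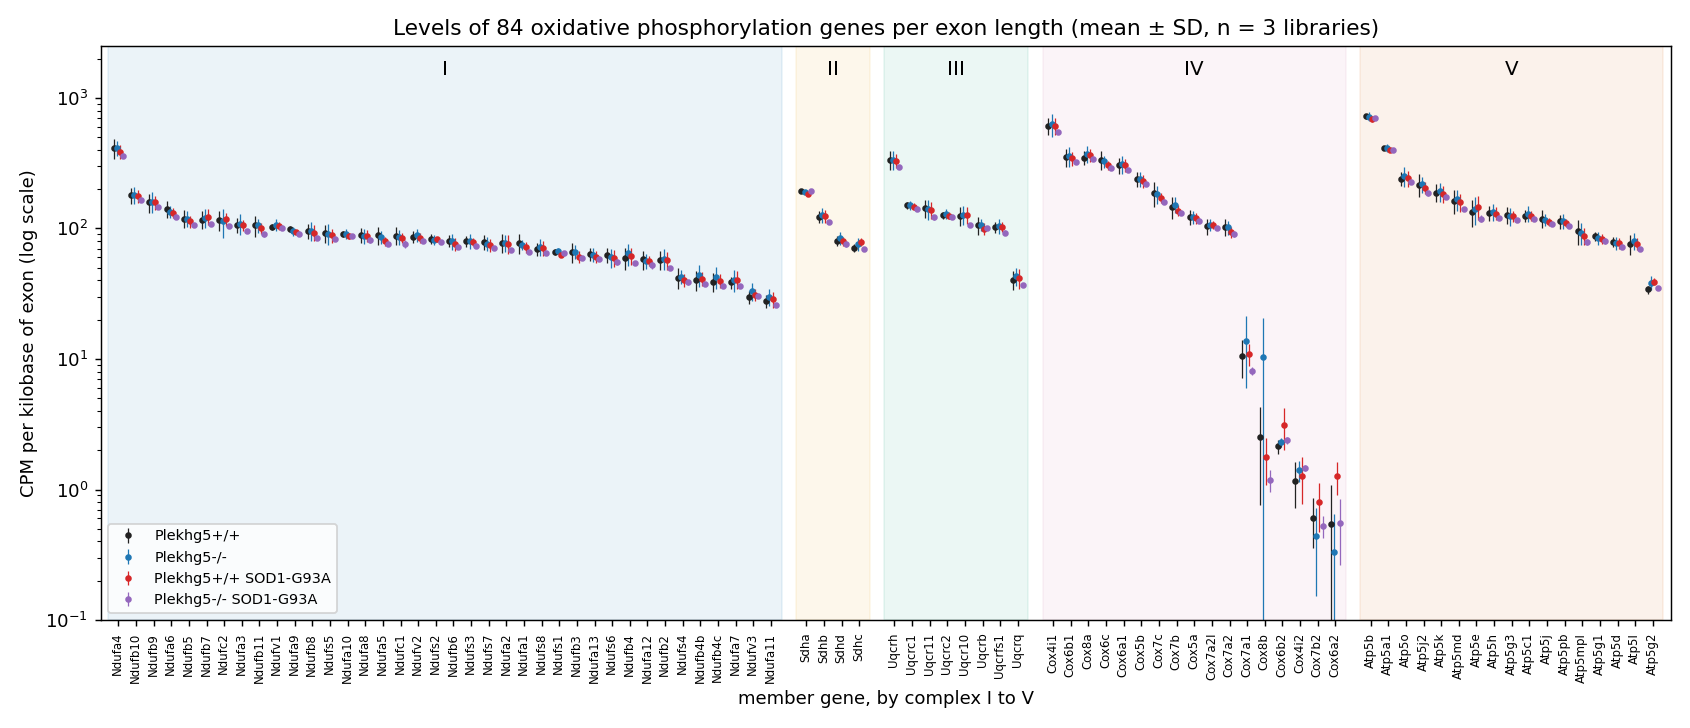
Levels of the 84 tested subunit genes in CPM per kilobase of exon (log axis), grouped by complex, with the mean and SD of 3 libraries for each of the 4 genotypes. The genotypes lie on top of each other for most genes, and the lowest points are the tissue-restricted forms of complex IV, down to 0.335 CPM per kilobase for Cox6a2 in Plekhg5-/-.

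Several subunits exist as alternative forms encoded by separate genes, and spinal cord used the widespread form nearly throughout. Cox4i2, the form known from lung and low oxygen, made up 0.103 to 0.298% of Cox4i reads per length over the 12 libraries. Cox6a2, the heart and skeletal muscle form, made up 0.0125 to 0.555%, and the testis forms Cox6b2 and Cox7b2 made up 0.494 to 1.31% and 0.0876 to 0.825% of their families. Cox8b, of muscle and brown fat, ranged from 0.202 to 6.90% of Cox8, the rest being Cox8a. Cox8c, a testis form, had no count in any library, where 3 counts would be a level of 0.0774 to 0.0986 CPM. Of 3 germ cell markers, 2 were at 0 in all 12 libraries.

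The Cox7a and Atp5g families were mixed. Cox7a2 took 43.2 to 47.5% and Cox7a2l, whose product joins complexes III and IV, took 46.5 to 52.0%, with 3.70 to 10.2% for the muscle and brown fat form Cox7a1. The 3 Atp5g genes encode the same mature c subunit of the proton-driven ring behind different import signals: Atp5g3 took 49.0 to 53.1%, Atp5g1 33.5 to 36.2% and Atp5g2 13.2 to 16.7%. Ndufb4, Ndufb4b and Ndufb4c are near-identical copies, so their split of 41.9 to 43.5%, 28.7 to 29.5% and 27.7 to 28.6% partly reflects how reads with several matches were divided. In all, 31 of the 85 genes had counts that were not whole numbers in over 6 of the 12 libraries, and 20 had whole counts in every library.

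Across the 12 libraries the subunit genes moved together. Each gene's log2 CPM in a library was set against its mean over all libraries, and 74 of the 84 genes had the same 3 highest libraries: Plekhg5-/- 1, Plekhg5+/+ 1 and Plekhg5+/+ SOD1-G93A 3. The median deviation of the 84 genes was 0.26 on the log2 scale in Plekhg5+/+ 1, -0.12 in Plekhg5+/+ 2 and -0.041 in Plekhg5+/+ 3. It was 0.26, -0.0095 and -0.11 in the Plekhg5-/- libraries, -0.11, -0.037 and 0.17 in the Plekhg5+/+ SOD1-G93A libraries, and -0.097, -0.11 and -0.062 in the Plekhg5-/- SOD1-G93A libraries. The 3 high libraries came from 3 different genotypes, and the other 9 lay between -0.12 and -0.0095. By genotype the means were 0.035 ± 0.20, 0.048 ± 0.19, 0.0083 ± 0.14 and -0.091 ± 0.026 (SD, n = 3), so the genotypes overlapped.

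Cox4i1 gave the pattern in single values, at 548, 410 and 441 CPM in Plekhg5+/+, 593, 439 and 412 in Plekhg5-/-, 417, 433 and 542 in Plekhg5+/+ SOD1-G93A, and 420, 410 and 430 in Plekhg5-/- SOD1-G93A. Within 3 of the 4 genotypes 1 library stood well above the other 2. Uqcrh ran alike, at 218, 160 and 171, then 216, 177 and 158, then 158, 178 and 202, and at last 160, 157 and 167 CPM in the same order. Sdha did not follow: it stayed between 516 and 564 CPM in all 12 libraries. Over the 12 libraries the median correlation between pairs of subunit genes was 0.902, and 0.914 for the 78 genes with at least 500 counts on average. Within genotypes it was 0.938 for those 78. The genes outside the pattern were Ndufs1 and Ndufa9 of complex I, Sdha, Atp5g2, and the low forms Cox4i2, Cox6a2, Cox6b2, Cox7a1, Cox7b2 and Cox8b of complex IV.

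**Figure D2:**
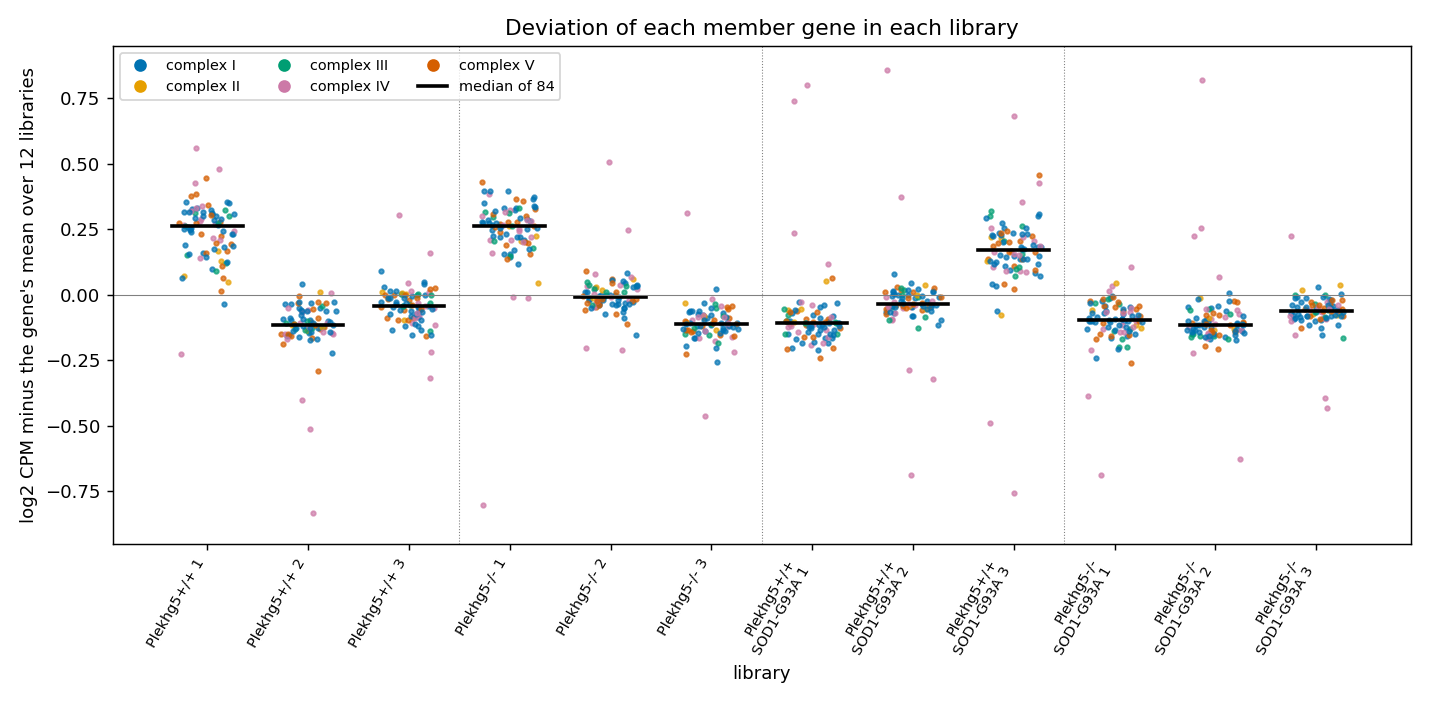
Deviation of each of the 84 tested subunit genes from its own mean over all libraries, in log2 CPM, for each of the 12 libraries, with the median marked. Plekhg5+/+ 1, Plekhg5-/- 1 and Plekhg5+/+ SOD1-G93A 3 stand above the rest with medians of 0.26, 0.26 and 0.17, and 12 points beyond ±0.9 are not drawn.

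The shared movement followed exon length. Most subunits are short transcripts, and other short transcripts moved with them. Among 166 other abundant genes with under 1000 bases of exon the median correlation between pairs was 0.799. Among 3734 with at least 4000 bases it was 0.264, and genes between these lengths were left out of this contrast. In Plekhg5+/+ 1, for example, the median deviation fell in steps from 0.20 over 63 other genes with up to 700 bases to -0.079 over 2228 other genes with more than 6000 bases. The 12 libraries are the points of these correlations and share the same preparation, so they are given as a description. Sdha and Ndufs1, with 2859 and 2979 bases of exon, are the longest subunit genes and were 2 of the 10 outside the shared pattern. The cause of the length trend was not tested. The submitters gave a high RNA integrity for all samples, but it was not compared between libraries. Its part in the length trend was not tested either.

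Set against other genes of like length, the subunits divided by transgene. The median deviation of the subunits, less that of other genes matched for exon length, was 0.092, 0.023 and 0.036 log2 units in the Plekhg5+/+ libraries and 0.030, 0.049 and 0.0032 in the Plekhg5-/- libraries. It was -0.10, -0.029 and -0.022 in the Plekhg5+/+ SOD1-G93A libraries, and -0.035, -0.039 and -0.027 in the Plekhg5-/- SOD1-G93A libraries. All 6 libraries without the transgene were above 0 and all 6 with it below 0. The differences were small, with genotype means from 0.050 ± 0.037 to -0.051 ± 0.044 (SD, n = 3). With cytosolic and mitochondrial ribosomal protein genes removed from the matched set the groups overlapped. Plekhg5+/+ 2 and Plekhg5-/- 3 were at -0.014 and -0.016, and Plekhg5+/+ SOD1-G93A 3 was at 0.0058.

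**Figure D3:**
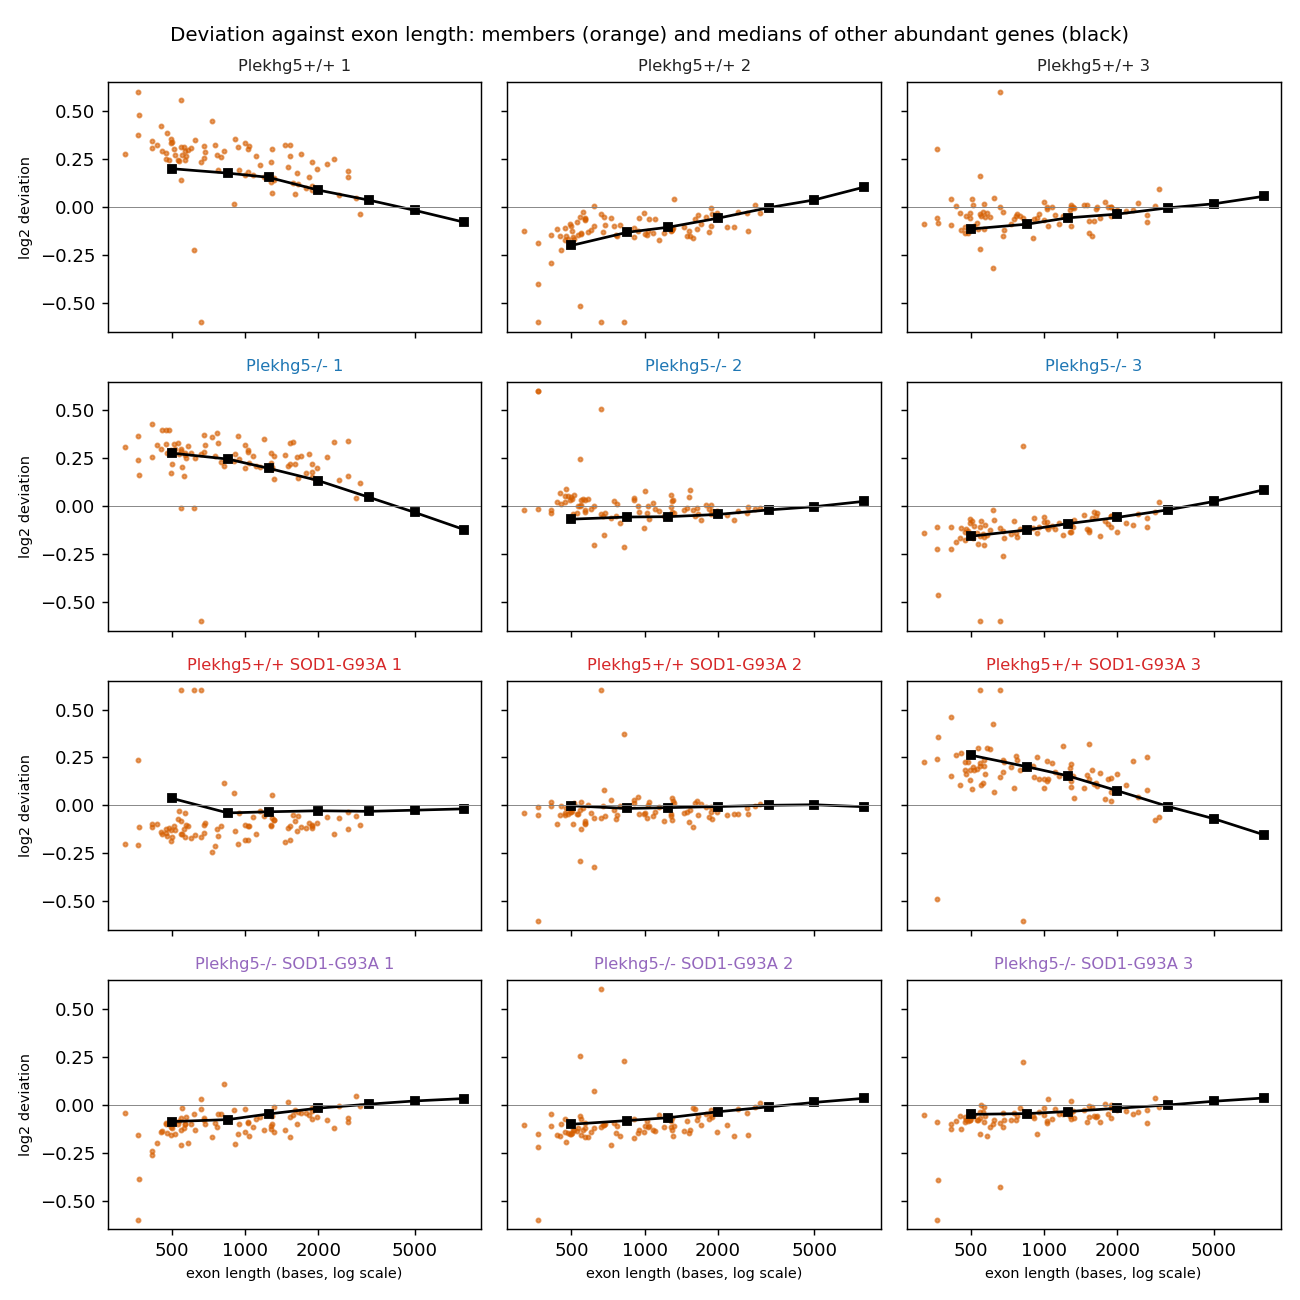
Deviation of subunit genes (orange points) and of other abundant genes (black line, medians of length bins) from their means over all libraries, in log2 CPM, against exon length in bases (log axis), with 1 panel for each of the 12 libraries. The black line falls with length in Plekhg5+/+ 1, Plekhg5-/- 1 and Plekhg5+/+ SOD1-G93A 3 and the orange points follow it, and points beyond ±0.6 are drawn at the edge.

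The promoters of the subunit genes were read as well. Windows from 250 bases before to 50 after the start were taken from RefSeq on GRCm38.p6, and 69 of the 85 genes matched, with 74 promoters. On either strand the letters GCGCATGC, the core of the site of NRF1, a known activator of respiratory chain genes, stood in 10 promoters, or 13.5%, against 3.52% of 21296 protein-coding promoters. The YY1 letters AAGATGGC were in 13.5% against 3.05%, and the letters AAGGTCA, read by the oestrogen-related receptors, in 10.8% against 4.08%. The letters CCGGAAGT of the ETS and GABPA factors were in 6.76% against 5.14%, GGGCGG of Sp1 in 39.2% against 46.2%, and TATAAA in 12.2% against 12.6%. At least 1 of the NRF1, ETS and YY1 strings stood in 24 genes, or 32.4% of promoters against 11% of all. A run GCGCATGCGC matches NRF1 on both strands and was counted once. These are matches of letters, not measured binding. Whether genes with these letters moved differently across the libraries was not tested.

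To show where the NRF1 letters lay, 60 bases of 1 promoter for each complex are given, 5′ to 3′ on the gene's strand with the match in capitals. They are Ndufa6 of complex I (chr15:82354341-82354400, minus strand), Sdhb of complex II (chr4:140961191-140961250, plus strand), Uqcr11 of complex III (chr10:80406814-80406873, minus strand), Cox6a1 of complex IV (chr5:115349086-115349145, minus strand) and Atp5k of complex V (chr5:108434415-108434474, minus strand). Where the capitals run to 10 letters the site reads the same on both strands.
Ndufa6: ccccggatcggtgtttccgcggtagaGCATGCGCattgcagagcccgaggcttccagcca
Sdhb: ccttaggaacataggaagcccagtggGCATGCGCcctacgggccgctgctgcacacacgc
Uqcr11: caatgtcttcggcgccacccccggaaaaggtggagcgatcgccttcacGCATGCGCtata
Cox6a1: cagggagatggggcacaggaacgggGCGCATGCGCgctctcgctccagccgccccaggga
Atp5k: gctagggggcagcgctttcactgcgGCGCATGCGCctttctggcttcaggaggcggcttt

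For the subunits on which later results turn, the 60 bases just before the start are given. These are Ndufa5 (chr6:24527691-24527750, minus strand), Ndufb6 (chr4:40279422-40279481, minus strand), Cox5b (chr1:36691427-36691486, plus strand), and the tissue-restricted Cox8b (chr7:140900447-140900506, minus strand) and Cox7a1 (chr7:30184111-30184170, plus strand). None of the 5 had the NRF1 letters in its whole window, so no base is in capitals.
Ndufa5: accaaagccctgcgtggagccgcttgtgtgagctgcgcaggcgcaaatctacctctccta
Ndufb6: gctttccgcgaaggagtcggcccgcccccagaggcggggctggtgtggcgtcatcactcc
Cox5b: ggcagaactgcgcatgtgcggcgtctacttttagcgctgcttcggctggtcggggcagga
Cox8b: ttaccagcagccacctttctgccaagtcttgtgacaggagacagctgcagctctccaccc
Cox7a1: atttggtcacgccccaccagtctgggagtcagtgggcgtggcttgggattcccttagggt

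The first comparison asked how the transgene changed the spinal cord of mice with intact Plekhg5. No subunit gene changed between Plekhg5+/+ SOD1-G93A and Plekhg5+/+ libraries by edgeR's quasi-likelihood test with a Benjamini-Hochberg adjusted p under 0.05, which called 2.47% of all genes. DESeq2 without a prior called 0 subunits as well, against 1159 of 33715 genes. Under an unadjusted p of 0.05, edgeR had 2 of 84 subunits, both higher, against 18.2% of all genes. The 3 transgenic libraries were all outside the range of the 3 controls for 2 subunits, against 20.6% of all genes. The median log2 fold change was -0.027, with 58 genes lower and 26 higher, beside -0.00099 over all genes tested. Without Plekhg5+/+ 1 the median was 0.088, and without Plekhg5+/+ SOD1-G93A 1 it was 0.033, so its sign rested on single libraries.

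The medians by complex were small in both directions: -0.030 for complex I with 28 of 38 lower, 0.0070 for complex II with 2 of 4 lower, -0.020 for complex III with 5 of 8 lower, -0.0076 for complex IV with 10 of 17 lower, and -0.039 for complex V with 13 of 17 lower. The median 95% interval of a subunit reached 0.256 log2 units to either side. The markers moved in the same comparison. Summed neuronal markers (9 genes) were at 11600 to 11700 CPM in Plekhg5+/+ and 8990 to 10700 in Plekhg5+/+ SOD1-G93A libraries. Of these Nefh, Nefl, Nefm and Syp were lower without overlap, and the other neuronal markers overlapped. Astrocyte markers (7 genes) were at 5850 to 6010 and 7180 to 10400 CPM. Gfap, Aqp4 and Aldh1l1 were higher without overlap, Gfap at 1330 to 1830 against 2820 to 5050 CPM. Slc1a2, Gja1, S100b and Slc1a3 overlapped. No marker of these lists was at 0, and their part in the subunit values was not tested.

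The 2 subunits past an unadjusted p of 0.05 were Cox6b2 and Atp5g2. Cox6b2 had 44, 48 and 39 counts in Plekhg5+/+ and 82, 36 and 68 in Plekhg5+/+ SOD1-G93A libraries, which overlap. Its log2 fold change was 0.54 ± 0.232 (SE), with an edgeR adjusted p of 0.240. Atp5g2 was at 33.3, 29.5 and 29.5 CPM in Plekhg5+/+ against 34.4, 33.5 and 37.9 CPM, with no overlap. Its log2 fold change was 0.20 ± 0.088, with an edgeR adjusted p of 0.256. Sdhc, a membrane anchor of complex II, was at 100, 87.8 and 89.0 against 98.7, 97.7 and 111 CPM, a log2 fold change of 0.15 ± 0.0856 (edgeR adjusted p = 0.391).

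Sdha was the other subunit without overlap. It was at 564, 549 and 547 CPM in Plekhg5+/+ and 525, 544 and 516 CPM in Plekhg5+/+ SOD1-G93A libraries. The log2 fold change was -0.066 ± 0.0492, and the edgeR adjusted p was 0.520. The catalytic Atp5b was at 1430, 1320 and 1330 against 1240, 1300 and 1350 CPM, and Atp5a1 at 1030, 964 and 998 against 938, 953 and 1010 CPM, both with overlap. Of the complex I core, Ndufs1 was at 190, 191 and 207 against 182, 196 and 187 CPM and Ndufv1 at 174, 159 and 158 against 157, 168 and 179 CPM. Uqcrc1 was at 264, 236 and 243 against 234, 235 and 260 CPM, and Cox5a at 208, 162 and 181 against 165, 175 and 200 CPM. All of these groups overlapped.

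Because the length trend widened the spread between libraries, the test was repeated with it taken out, a step added after the data had been seen. For each library a smooth line of deviation on exon length was drawn through the genes other than the subunits and entered as an offset. The median standard error of the subunits fell from 0.118 to 0.0586, and that over all genes from 0.12 to 0.102. In this fit 5 of 84 subunits fell in Plekhg5+/+ SOD1-G93A relative to Plekhg5+/+, and none rose, where 4.12% of all genes were called. This count is near that share, so the calls describe single genes and not the subunits as a set. Under an unadjusted p of 0.05 were 32 subunits, 31 of them lower, or 38.1% against 21.3% of all genes. The median log2 fold change was -0.092, with 74 of 84 lower, beside -0.0071 over all genes.

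The 5 genes come from complexes I, III and IV. Ndufa5, an accessory subunit of the matrix arm of complex I (chr6:24518662-24527690), was at 65.1, 47.7 and 52.7 CPM in Plekhg5+/+ and 45.9, 48.8 and 53.6 in Plekhg5+/+ SOD1-G93A libraries before the offset. These values overlap. With the offset its log2 fold change was -0.25 ± 0.0472 (SE, edgeR adjusted p = 0.0225), and without it -0.16 ± 0.111. Cox6c, a small membrane subunit of complex IV (chr15:35931976-35938246), was at 198, 144 and 161 against 140, 154 and 166 CPM. Its offset log2 fold change was -0.23 ± 0.0517 (edgeR adjusted p = 0.0346).

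Cox5b, a matrix-facing subunit of complex IV that holds zinc (chr1:36691487-36693388), was at 158, 126 and 127 CPM in Plekhg5+/+ and 122, 123 and 147 in Plekhg5+/+ SOD1-G93A libraries. Its offset log2 fold change was -0.17 ± 0.0387 (edgeR adjusted p = 0.0375). Uqcrb of complex III (chr13:66900576-66905350), which helps to form the ubiquinone site, was at 68.4, 51.6 and 54.9 against 51.0, 51.9 and 61.0 CPM. The offset fit gave -0.19 ± 0.0449 (edgeR adjusted p = 0.0373). Ndufb6, a membrane arm subunit of complex I (chr4:40270591-40279421), was at 59.5, 49.4 and 50.6 against 45.2, 48.3 and 56.1 CPM, and the offset fit gave -0.19 ± 0.0484 (edgeR adjusted p = 0.0485). In each of the 5, Plekhg5+/+ 1 was the highest of the 3 controls and Plekhg5+/+ SOD1-G93A 1 the lowest of the 3 transgenic libraries.

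The line that sets the offset also ran through the cytosolic ribosomal protein genes, which are short and had a median log2 fold change of 0.091 under it. Drawn without them, a choice made after the data had been seen, it gave 4 calls, all lower, again near the 4.12% of all genes called. Ndufb6 was no longer among them (log2 fold change -0.19 ± 0.0486, edgeR adjusted p = 0.0527). The redrawn line left 30 of 84 subunits under an unadjusted p of 0.05, 29 of them lower, against 21.3% of all genes, and the median was -0.090 with 74 lower. The ribosomal protein genes were 76 of the 20155 genes tested, so leaving them out could move the line little. This fit therefore cannot decide what part they have in the shift.

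Under the offset an unadjusted p under 0.05 was reached by 16 of 38 genes of complex I (42.1%), 3 of 8 of complex III (37.5%), 6 of 17 of complex IV and 6 of 17 of complex V (35.3% each), against 21.3% of all genes. In complex II it was 1 of 4, near that background. All of these were lower except Atp5g2 of complex V, with medians from -0.061 for complex II to -0.11 for complex I. The smaller standard errors of the subunits make these shares unlike that of all genes. Assembly factors had a median of -0.070 with 7 of 45 under that p, all lower, a share of 15.6% that lay below the background. The citric acid cycle and pyruvate dehydrogenase genes had a median of -0.070 too, with 6 of 16 under that p (37.5%), 5 of them lower. Of these Pdhb, which encodes a subunit of pyruvate dehydrogenase, fell, with a log2 fold change of -0.23 ± 0.0526 (edgeR adjusted p = 0.0344). The 76 cytosolic ribosomal protein genes, also short, had a median of 0.091, with 17 under that p (22.4%) and none lower.

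The 5 calls depended on single libraries. Without Plekhg5+/+ 1, Plekhg5+/+ 2 or Plekhg5+/+ SOD1-G93A 1 no subunit was called, whereas 3 were called without Plekhg5+/+ 3, 6 without Plekhg5-/- 1, 5 without Plekhg5+/+ SOD1-G93A 2 and 2 without Plekhg5-/- 2 or Plekhg5+/+ SOD1-G93A 3. Without Plekhg5-/- 3 or any of the Plekhg5-/- SOD1-G93A libraries 1 was called. The subunits under an unadjusted p of 0.05 numbered 17 without Plekhg5+/+ 1 and 13 without Plekhg5+/+ SOD1-G93A 1, against 28 to 38 without any other library. The direction was kept, with a median log2 fold change between -0.057 and -0.13 over the 12 fits. Shares over all genes are not given for these fits, so the counts compare them only with each other. Plekhg5+/+ SOD1-G93A 1 also had the highest summed microglial markers at 1540 CPM, the highest astrocyte markers at 10400 CPM and the lowest neuronal markers at 8990 CPM. Without it the median was -0.057.

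**Figure D4:**
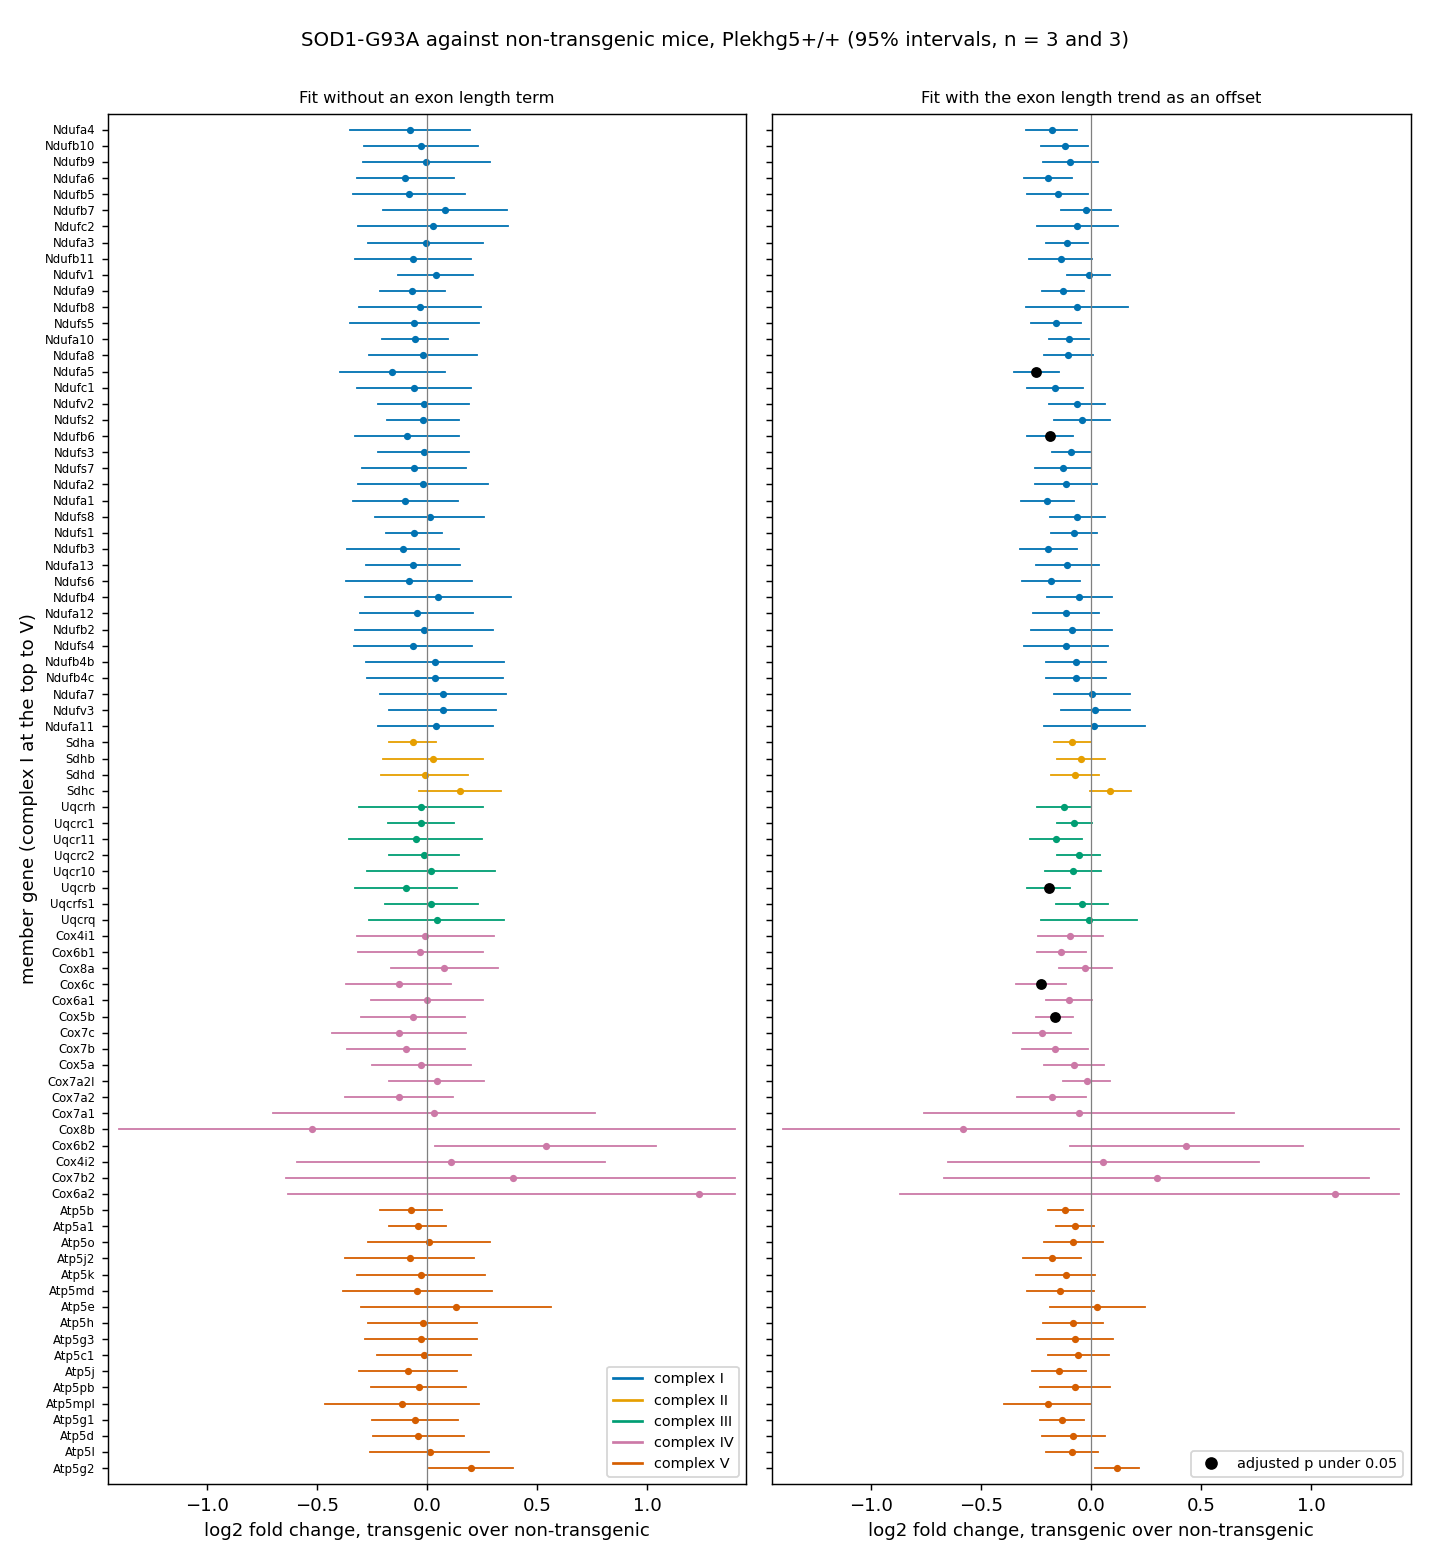
Log2 fold change of each tested subunit gene between Plekhg5+/+ SOD1-G93A and Plekhg5+/+ libraries (3 each) with its 95% interval, without and with the offset for exon length, axis limited to ±1.4. Without the offset no gene passed an edgeR adjusted p of 0.05, and with it Ndufa5, Cox6c, Uqcrb, Cox5b and Ndufb6 did, all lower (black points).

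The second comparison asked what the loss of Plekhg5 changed in transgenic mice. No subunit differed between Plekhg5-/- SOD1-G93A and Plekhg5+/+ SOD1-G93A libraries at an edgeR adjusted p under 0.05 (0.0347% of all genes called). DESeq2 without a prior called no subunit either, against 72 of 33715 genes. Under an unadjusted edgeR p of 0.05 was 1 subunit, against 8.64% of all genes. In 9 subunits all 3 Plekhg5-/- SOD1-G93A libraries were below the other 3, against 19.5% of all genes without overlap in either direction. The 9 were Sdhc, Sdhb, Ndufa3, Cox7a1, Cox6a2, Ndufb7, Uqcr10, Atp5g2 and Cox7a2l. The median log2 fold change was -0.10, with 79 of 84 lower, beside -0.0097 over all genes. By complex it was -0.10, -0.11, -0.15, -0.097 and -0.092 from I to V. Without Plekhg5+/+ SOD1-G93A 3 the median over all subunits was -0.021, and without Plekhg5+/+ SOD1-G93A 1 it was -0.16.

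Sdhc was the gene with the smallest p. It was at 98.7, 97.7 and 111 CPM in Plekhg5+/+ SOD1-G93A and at 91.6, 87.0 and 90.3 CPM in Plekhg5-/- SOD1-G93A libraries. The log2 fold change was -0.19 ± 0.0856, and the edgeR adjusted p was 0.565. Uqcr10, a small subunit of complex III, was at 65.1, 70.3 and 86.4 against 61.2, 62.4 and 62.7 CPM, a log2 fold change of -0.25 ± 0.135. Atp5g2 was at 34.4, 33.5 and 37.9 against 32.3, 31.2 and 31.5 CPM (log2 fold change -0.16 ± 0.0878), and Sdhb at 125, 125 and 151 against 120, 118 and 123 CPM. Cox6b2 (-0.39 ± 0.230) and Atp5e, the epsilon subunit of the ATP synthase (-0.31 ± 0.197), followed by p. With the offset for exon length the shared shift was gone: the median was 0.011, 37 of 84 were lower, and 3 had an unadjusted p under 0.05, against 10.3% of all genes. No subunit was called, against 0.0447% of all genes.

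The third comparison asked what the loss of Plekhg5 changed without the transgene. No subunit differed between Plekhg5-/- and Plekhg5+/+ libraries by edgeR (0.0298% of all genes called). DESeq2 without a prior called no subunit either, against 34 of 33715 genes. None had an unadjusted edgeR p under 0.05, against 5.32% of all genes. In no subunit were the 3 libraries of one genotype all outside the other 3, against 8.71% of all genes. The median log2 fold change was 0.015, with 30 of 84 lower, beside 0.0054 over all genes, and the complex medians lay between 0.010 and 0.058. The overall median was 0.13 without Plekhg5+/+ 1 and -0.10 without Plekhg5-/- 1, and also fell below 0 without Plekhg5+/+ 2 (-0.054) or Plekhg5+/+ 3 (-0.034). The 10 core subunits overlapped throughout. Atp5b, for one, was at 1480, 1290 and 1280 CPM in Plekhg5-/- against 1430, 1320 and 1330 CPM. Under the offset the median was -0.022, with 2 subunits under an unadjusted p of 0.05, against 6.86% of all genes, and none called, against 0.0447% of all genes.

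The genes with the smallest p in this comparison were Cox8b, described below, then Atp5g2 at 38.8, 34.0 and 30.5 CPM in Plekhg5-/- libraries (log2 fold change 0.16) and Ndufv3, an accessory subunit of the NADH-oxidising arm (0.15), with Cox7a1 and Sdhc next. No subunit gene lies within 10 Mb of Plekhg5 on its chromosome, the nearest being Sdhb at 11.1 Mb.

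The fourth comparison asked how the transgene changed the spinal cord of mice without Plekhg5. It was 0 called of 84 between Plekhg5-/- SOD1-G93A and Plekhg5-/- libraries, where edgeR called 0.00496% of all genes. DESeq2 without a prior called no subunit either, against 45 of 33715 genes. An unadjusted edgeR p under 0.05 was reached by 2 subunits, Cox8b and Cox7a1, against 5.38% of all genes. In 9 subunits all 3 Plekhg5-/- SOD1-G93A libraries were lower without overlap, against 12.5% of all genes in either direction. These were Ndufa5, Ndufb2, Ndufa11, Ndufv2, Ndufs8, Ndufb11 and Ndufa1 of complex I, Uqcr10 of complex III and Cox8b of complex IV. The median log2 fold change was -0.14 with 79 of 84 lower, beside -0.0049 over all genes, and ran from -0.18 in complex III to -0.13 in complexes II and V. Without Plekhg5-/- 1 it was -0.027, and without Plekhg5-/- 3 it was -0.23.

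Ndufb11, a membrane arm subunit of complex I, was at 110, 93 and 87 CPM in Plekhg5-/- and 78.9, 80.7 and 86.5 CPM in Plekhg5-/- SOD1-G93A libraries (log2 fold change -0.24 ± 0.122, edgeR adjusted p = 0.95). Uqcr10 was at 87.2, 72.2 and 63.4 against 61.2, 62.4 and 62.7 CPM (-0.26). The Rieske protein gene Uqcrfs1 was at 158, 135 and 122 against 120, 118 and 129 CPM (-0.18), with overlap. Plekhg5-/- 1 was the highest library in each of the 3. Under the offset the median was -0.075, with 78 of 84 lower and 7 under an unadjusted p of 0.05, against 6.81% of all genes. None was called, against 0.00496% of all genes.

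The interaction asked whether the effect of the transgene differed between mice with and without Plekhg5. No gene of the whole table passed the adjusted threshold in edgeR (0%). DESeq2 without a prior called no subunit, against 95 of 33715 genes. Under an unadjusted edgeR p of 0.05 were Atp5g2 and Sdhc, 2 of 84, against 9.05% of all genes. The interaction was -0.32 ± 0.124 for Atp5g2 (edgeR adjusted p = 0.480) and -0.28 ± 0.121 for Sdhc (edgeR adjusted p = 0.526). In both genes the transgene contrast was positive with Plekhg5 and negative without it, and neither difference passed. The median over the 84 subunits was -0.12, beside -0.015 over all genes, and the median 95% interval reached 0.362 to either side. The median was 0.0062 without Plekhg5-/- 1, -0.033 without Plekhg5+/+ SOD1-G93A 3 and -0.25 without Plekhg5+/+ 1. With the offset the median was 0.030, with 6 subunits under an unadjusted p of 0.05 against 11% of all genes, and 0 called.

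Averaged over both Plekhg5 backgrounds, the contrast of all 6 transgenic with all 6 other libraries called 0 subunits by edgeR (1.22% of all genes). DESeq2 without a prior called no subunit either, against 811 of 33715 genes. Under an unadjusted edgeR p of 0.05 was 1 subunit, Cox8b, against 14.7% of all genes. The median was -0.085 with 78 of 84 lower, beside -0.0058 over all genes. By complex it was -0.090, -0.048, -0.091, -0.090 and -0.070 from I to V. The overall median was -0.031 without Plekhg5+/+ 1 and -0.033 without Plekhg5-/- 1. After Cox8b the smallest p belonged to Ndufa5 (log2 fold change -0.17), Cox6c (-0.15), Cox7a2 (-0.15) and Cox6b2 (0.30).

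Under the offset this average gave the most subunits past an unadjusted p of 0.05, 44 of 84 and all lower, or 52.4% against 18.5% of all genes. They were 21 genes of complex I, 2 of II, 6 of III, 8 of IV and 7 of V. The median standard error was 0.0415 for the subunits and 0.0721 over all genes, so the 2 shares are not like for like. Only Ndufa5 was called (1.42% of all genes called), at -0.17 ± 0.0333 (edgeR adjusted p = 0.0355). Cox6c came next with -0.16 ± 0.0366 (edgeR adjusted p = 0.0553). The median was -0.090, the same size as without the offset. With the line drawn without cytosolic ribosomal protein genes 42 of 84 were under that p, all lower, against 18.4% of all genes, and Ndufa5 was again the call (1.42% of all genes called). With each library left out in turn the subunits under an unadjusted p of 0.05 ranged from 22 without Plekhg5+/+ SOD1-G93A 1 to 56 without Plekhg5+/+ SOD1-G93A 3, those called from 0 to 3, with 0 in 8 of the 12 fits, and the median from -0.067 to -0.11. Without Plekhg5+/+ 1 the number was 23, without Plekhg5-/- 1 it was 26, and without Plekhg5-/- SOD1-G93A 1 and 2 it was 29 and 28. Shares over all genes are not given for these 12 fits. The comparisons share libraries, so the values of one are not independent of the others.

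The remaining variation was in subunit forms of other tissues. Cox8b had 32, 318 and 21 counts in the Plekhg5-/- libraries, 53, 8 and 32 in Plekhg5+/+, 30, 14 and 18 in Plekhg5+/+ SOD1-G93A, and 15, 16 and 13 in Plekhg5-/- SOD1-G93A. A single library, Plekhg5-/- 2, was far above the rest. Cox7a1 had 144, 271.5 and 85.5 counts in Plekhg5-/- libraries against 182, 90.5 and 116 in Plekhg5+/+, with the same library highest. It had 112, 110.5 and 161 counts in Plekhg5+/+ SOD1-G93A and 93, 105.5 and 110 in Plekhg5-/- SOD1-G93A libraries.

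Ucp1, the uncoupling protein that defines brown fat, had 1080 counts in Plekhg5-/- 2 and 392 in Plekhg5+/+ 1, against 2 to 53 in the other 10 libraries. These are the libraries with the highest and second highest Cox8b and Cox7a1. The other brown fat marker, Cidea, was above 0 in all 12, and the sum of both markers was 46.1 CPM in Plekhg5-/- 2 and 18.7 in Plekhg5+/+ 1. For Cox8b the edgeR log2 fold change of Plekhg5-/- against Plekhg5+/+ was 2.00 ± 0.916 (adjusted p = 0.934), and that of Plekhg5-/- SOD1-G93A against Plekhg5-/- was -3.12 ± 1.01 (adjusted p = 0.757). Without Plekhg5-/- 2 these were -0.21 and -0.91. For Cox7a1 the second contrast was -0.76 ± 0.337 (edgeR adjusted p = 0.907), and -0.22 without that library. The average transgene contrast of Cox8b went from -1.82 ± 0.727 (edgeR adjusted p = 0.275) to -0.72.

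Cox6a2, the skeletal muscle form, had 1, 1 and 33 counts in Plekhg5+/+, 5, 15 and 2 in Plekhg5-/-, 27, 18 and 36 in Plekhg5+/+ SOD1-G93A, and 10, 19 and 8 in Plekhg5-/- SOD1-G93A libraries. Muscle creatine kinase, Ckm, had 851, 270, 527 and 190 counts in Plekhg5+/+ 3, Plekhg5-/- 2, Plekhg5+/+ SOD1-G93A 3 and Plekhg5-/- SOD1-G93A 2, against 4 to 28 in the other 8. In each genotype the library with the most Ckm also had the most Cox6a2. Between Plekhg5+/+ SOD1-G93A and Plekhg5+/+ libraries the log2 fold change of Cox6a2 was 1.23 ± 0.853 (edgeR adjusted p = 0.490). Without Plekhg5+/+ 3 it was 4.63 (edgeR adjusted p = 0.0255). Without all 4 libraries with over 100 Ckm counts, a choice made after seeing the data, it was 4.40 (edgeR adjusted p = 0.039). In that last fit 124 of 20193 genes were called. In the libraries with low Ckm, Cox6a2 had 1 and 1 counts in Plekhg5+/+ against 27 and 18 in Plekhg5+/+ SOD1-G93A. The summed 8 muscle markers in these 4 libraries lay between 4.02 and 6.84 CPM.

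The testis forms Cox6b2 and Cox7b2 were low in every library. Cox7b2 had 16, 6 and 11 counts in Plekhg5+/+, 10, 12 and 2 in Plekhg5-/-, 18, 7 and 17 in Plekhg5+/+ SOD1-G93A, and 8, 11.5 and 10 in Plekhg5-/- SOD1-G93A libraries. Without Plekhg5+/+ SOD1-G93A 2, whose count of Cox6b2 was 36, the first contrast of Cox6b2 was 0.77 (edgeR adjusted p = 0.0335). Cox4i2, known from pericytes as well as lung, had 18 to 48 counts in all 12 libraries, and the genotypes overlapped.

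**Figure D5:**
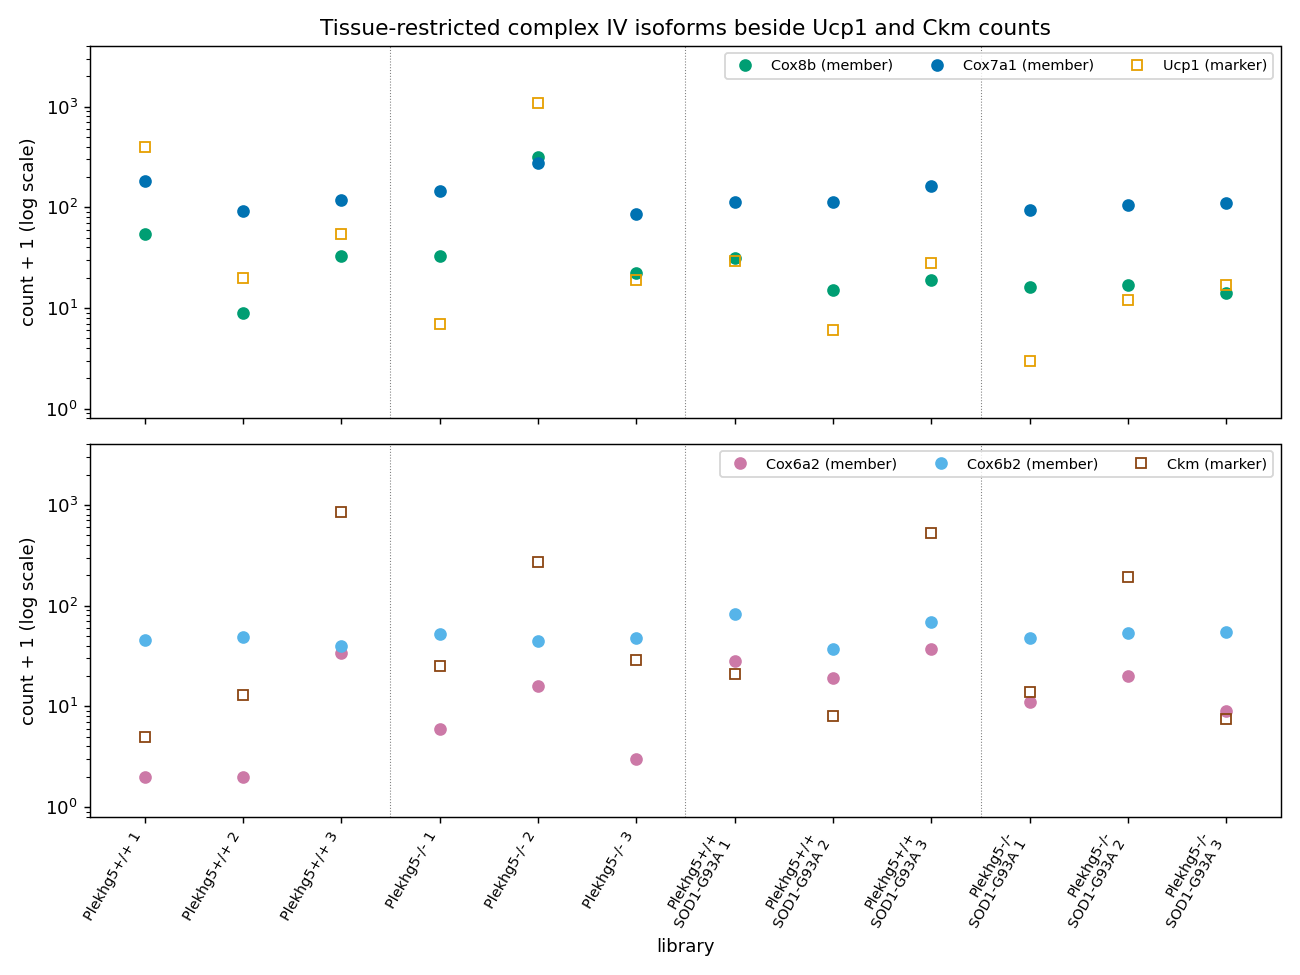
Counts plus 1 (log axis) of Cox8b and Cox7a1 beside the brown fat gene Ucp1, and of Cox6a2 and Cox6b2 beside the muscle gene Ckm, in each of the 12 libraries. Cox8b and Ucp1 peak together in Plekhg5-/- 2 at 318 and 1080 counts, and Cox6a2 is at 1 count in the 2 Plekhg5+/+ libraries with little Ckm.

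Neighbouring pathways were counted from lists in the same fit. Between Plekhg5+/+ SOD1-G93A and Plekhg5+/+ libraries none of 4 subunit and cytochrome c genes outside the name rule, 45 assembly factors, 16 genes of the citric acid cycle and pyruvate dehydrogenase, 16 genes of glycolysis and 11 regulators of mitochondrial gene expression passed the adjusted p. Under an unadjusted p of 0.05 were 0, 2, 2, 2 and 1 of them, shares of 0%, 4.44%, 12.5%, 12.5% and 9.09% that all lay below the 18.2% of all genes. Of the assembly factors these were Ndufaf4 (log2 fold change -0.23, edgeR adjusted p = 0.104) and Ndufaf5 (-0.17, edgeR adjusted p = 0.154), which both serve complex I. Of the citric acid cycle they were Suclg2, a subunit of succinyl-CoA ligase (0.28, edgeR adjusted p = 0.113), and Pdhb of pyruvate dehydrogenase (-0.19).

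In glycolysis the 2 genes were Pfkp, a phosphofructokinase (-0.18), and Eno2, the neuronal enolase (-0.12). The regulator was the coactivator Ppargc1b, at -0.48 ± 0.160 (edgeR adjusted p = 0.133). The smallest p outside the name rule was that of cytochrome c, Cycs (-0.18). Over all 6 contrasts these lists held 1 call: Eno1, the widespread enolase, fell in Plekhg5-/- SOD1-G93A relative to Plekhg5+/+ SOD1-G93A, by 0.55 ± 0.0792 on the log2 scale (edgeR adjusted p = 0.0326), where 0.0347% of all genes were called. Without the transgene its log2 fold change between Plekhg5-/- and Plekhg5+/+ was -0.49 ± 0.0791 (edgeR adjusted p = 0.103), and with the offset for exon length it was called there as well (-0.51 ± 0.0531, edgeR adjusted p = 0.00166). Between Plekhg5-/- SOD1-G93A and Plekhg5-/- libraries it was -0.085. Eno1 lies 1.82 Mb from Plekhg5 on the same chromosome.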

How the data were processed

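The authors extracted spinal cord RNA, selected poly-A RNA and made stranded libraries. Per the study's methods and the submitters' processing notes, reads were demultiplexed with bcl2fastq 2.20.0.422, trimmed with cutadapt 2.4, mapped with STAR 2.7.2b to GRCm38.p6 and human SOD1 cDNA, and counted by strand on RefSeq exons with featureCounts 1.6.4. The authors split reads with several matches or genes, so the values they deposited are estimated counts per gene and not normalized. They were rounded for tests, and 17.3 to 18.1% of each library's rows were not whole before. 0 columns had no sample.

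Genes were filtered with filterByExpr, normalized by TMM and tested with edgeR 4.0.16 (R 4.3.3, limma 3.58.1) by robust quasi-likelihood in 1 model of all 4 genotypes, with Benjamini-Hochberg adjustment over 20155 genes and a threshold of 0.05. DESeq2 1.42.0 was an alternative. Log2 levels used a prior count of 2. Scripts were tested on simulated data. Libraries of a genotype were compared for duplicates: their counts differed by 5.82 to 28.4 times the sampling noise (chi-square per degree of freedom). The members and lists were chosen with earlier results of these data known. Named genes were all called members, the 5 smallest p of each comparison, core subunits, tissue forms and the extreme levels of each complex. Promoters came from RefSeq; Cox6c and Uqcrb had none in the table used. Figures were drawn with matplotlib 3.10.9.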

Additional observations from a re-analysis of the deposited data

Results flagged for a closer look

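Outside the protein-coding rows, 9 pseudogene rows carried names of the same pattern, and 7 of them had over 3 counts in every one of the 12 libraries. The counts ran from 801 to 1109.17 for Atp5pb-ps, 412.32 to 608.19 for Atp5l2-ps, 359.45 to 515.15 for Atp5l-ps1 and 110.83 to 206.81 for Atp5l-ps2. Ndufs6b had 24.5 to 35.5, Atp5k-ps2 15.5 to 33.5 and Ndufa11b 10 to 28 counts. Fractional counts show that reads with several matches or on overlapping genes are among them, and how many belong to the parent genes was not tested.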

How the results depend on the processing

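Members called between Plekhg5+/+ SOD1-G93A and Plekhg5+/+ went from 0 to 5 with the exon length offset (4.12% of all genes called). The count was 4 with its line drawn without cytosolic ribosomal protein genes (4.12% of all genes). It was 1 without the libraries with skeletal muscle markers (Cox6a2, 4.40), where 124 of 20193 genes were called. All of these settings were added after seeing the data. With single libraries left out the count ranged from 0 to 1, with 1 without Plekhg5+/+ 3 (Cox6a2) or Plekhg5+/+ SOD1-G93A 2 (Cox6b2). Shares over all genes are not given for those fits. The averaged contrast went from 0 to 1 with either offset. No other setting called a member: DESeq2 with or without a prior (the prior for the 4 simple contrasts), its size factors in edgeR, upper-quartile factors, no filter, at least 10 counts in every library, the genotypes of one contrast alone, members with shared reads left out, or a term for Y-linked transcripts. Between Plekhg5-/- and Plekhg5+/+, leaving out single libraries gave log2 fold changes from -0.21 to 2.58 for Cox8b, -0.17 to 0.67 for Cox7a1 and -0.0036 to 0.16 for Sdhc; without the muscle marker libraries Cox8b was at -0.18 and Cox7a1 at -0.23.

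Median log2 fold changes over all settings ranged from -0.16 to 0.088 for the first contrast, -0.16 to 0.011, -0.10 to 0.15 and -0.23 to -0.027 for the next 3, -0.26 to 0.030 for the interaction and -0.17 to -0.031 for the average. Without the 2 libraries with brown fat markers the first was 0.074. Whether replicate numbers pair the samples cannot be told from the correlations. Of 18 same-number pairs 5 correlated over 0.1 (r from -0.163 to 0.318), and 6 of 12 libraries correlated best with their own number. With a replicate block 0 members were called and the first median was -0.016, so the block changed no call. Depth limits the low forms, with 1 to 36 counts for Cox6a2.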
